A study of Rattus norvegicus with 12 samples.

Results

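Thyrotropin-releasing hormone (TRH) is a small peptide cut from a precursor that the Trh gene encodes. The expression of Trh, of the genes of its receptors, Trhr and Trhr2, and of Trhde, the gene of the enzyme that degrades it, was described in the dorsal striatum of rats with a dopamine lesion. These 4 genes of the 35561 named on the array were chosen by name, whatever their signal, and were read by 5 of its 41012 probes. They were put forward because the Trh signal was high under L-DOPA on these same arrays, so the Trh levels are given as a description without a test. Tests were run for Trhr2 and Trhde, and Trhr was too dim to test.

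All 12 animals were male rats that had received 9 µg of 6-OHDA, a toxin of dopamine neurons, in the left substantia nigra pars compacta, and each gave 1 single-colour Agilent array of total RNA from punches of the dorsal striatum. The 6-OHDA group had the lesion alone. The HFS group also had 5 days of continuous high frequency stimulation of the subthalamic nucleus on the side of the lesion, at 130 Hz with 80 µs pulses of 60 µA. The DOPA group had the lesion and 19 days of L-DOPA (25 mg/kg, with 12.5 mg/kg of benserazide, which keeps L-DOPA from being converted outside the brain), in injections 12 h apart, and the DOPA/HFS group had both treatments, with the stimulation in the last 5 days of L-DOPA. Each group held 3 arrays, and no group without a lesion was on the arrays. The last L-DOPA injection was given 12 h before death. Of the 4 groups on the arrays, the methods describe an implanted electrode for the stimulated ones only, so that implantation and stimulation cannot be told apart, and those rats were killed as soon as stimulation ended. Strain and age are not given in the sources used here. The 4 arrays of a slide shared their replicate number, with 1 array of each group on each of the 3 slides, and each group kept the same position on every slide, so that position and group cannot be told apart.

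TRH is best known as the hypothalamic hormone that makes the pituitary release thyrotropin and prolactin. The precursor holds several copies of the peptide, which are released by prohormone convertases and carboxypeptidase E and finished by glutaminyl cyclase and an amidating enzyme. The peptide acts on receptors coupled to Gq proteins and phospholipase C, and is cleaved outside the cell by Trhde, also known as pyroglutamyl peptidase II. TRH and its receptors are also found in brain regions outside the hypothalamus, where the peptide acts as a neuromodulator.

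The sequence just upstream of the annotated start of Trh is shown because Trh was the member whose signal differed most between arrays. RefSeq places these 250 bases at chr4:126301763-126302012 of the rat assembly GRCr8, on the minus strand. The capitals mark TGACCTCA, a motif close to the cyclic AMP response element TGACGTCA, and TATAA, which ended at the last base before the start.
Trh upstream region: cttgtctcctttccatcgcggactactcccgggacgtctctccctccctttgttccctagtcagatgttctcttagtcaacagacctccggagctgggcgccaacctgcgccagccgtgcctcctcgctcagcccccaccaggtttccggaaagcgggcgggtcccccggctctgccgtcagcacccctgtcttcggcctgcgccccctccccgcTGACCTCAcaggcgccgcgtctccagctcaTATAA
TGACCTCA lay 35 to 28 bases before the start. On either strand it was present in 2.31% of the 33469 rat promoter windows of this length, whereas TGACGTCA was present in 1.59%, the AP-1 type motif TGANTCA in 6.34% and TATAA in 24% of them. Neither TGACGTCA nor TGANTCA was present in the Trh window. The upstream window of Trhde held none of these 4 motifs, and the table used here held no window for Trhr or Trhr2. These matches describe letters only.

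The identity of the samples was checked first. The 9 marker genes of striatal projection neurons were all on the array, and the summed linear signal of the 8 with a value on every array was 197000 to 273000 in 6-OHDA and 214000 to 254000 in the other groups. Of the 12 precursors of other hypothalamic peptides, Avp, Pmch, Pomc, Gal and Cartpt were well above background on all 12 arrays, Hcrt, Agrp and Ghrh on 11, Gnrh1 on 9, Kiss1 on 5, Crh on 4 and Oxt (oxytocin) on 0. The share of spots well above background was higher in the stimulated groups, at 60.3% to 63.2% in HFS and 60% to 62.8% in DOPA/HFS, than in 6-OHDA (53.8% to 58.9%) and DOPA (50.5% to 58%). Between 2 and 25 spots per array were marked as outliers by the scanner software, with the exception of the third DOPA/HFS array, which had 4175. On that array these spots had a median log2 intensity of 10.35, whereas the same spots had medians of 5.53 to 6.36 on the other arrays. Outlier spots were left out before normalization, and none was a member's. Signals are given as log2 of the quantile-normalized fluorescence, so that a difference of 1 is a doubling.

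Trh was well above background on all 12 arrays. In the 6-OHDA group its log2 signal was 8.00, 8.07 and 8.04 in replicates 1 to 3, and in the HFS group it was 7.59, 7.78 and 7.81. In the DOPA group it was 10.77, 10.75 and 10.61. In the DOPA/HFS group it was 7.82, 10.5 and 11.03. The 3 DOPA arrays and 2 of the 3 DOPA/HFS arrays thus formed the high range, and the first DOPA/HFS array lay with the 6-OHDA and HFS arrays. Before normalization, the fluorescence of the Trh spot was 164 to 372 on the 6-OHDA and HFS arrays, 1270 to 1600 on the DOPA arrays, and 250, 1500 and 2370 on the DOPA/HFS arrays, so the low first DOPA/HFS value was already in the scanner signal. In a striatal sample, more cells with Trh RNA and more Trh RNA per cell cannot be told apart.

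**Figure D1:**
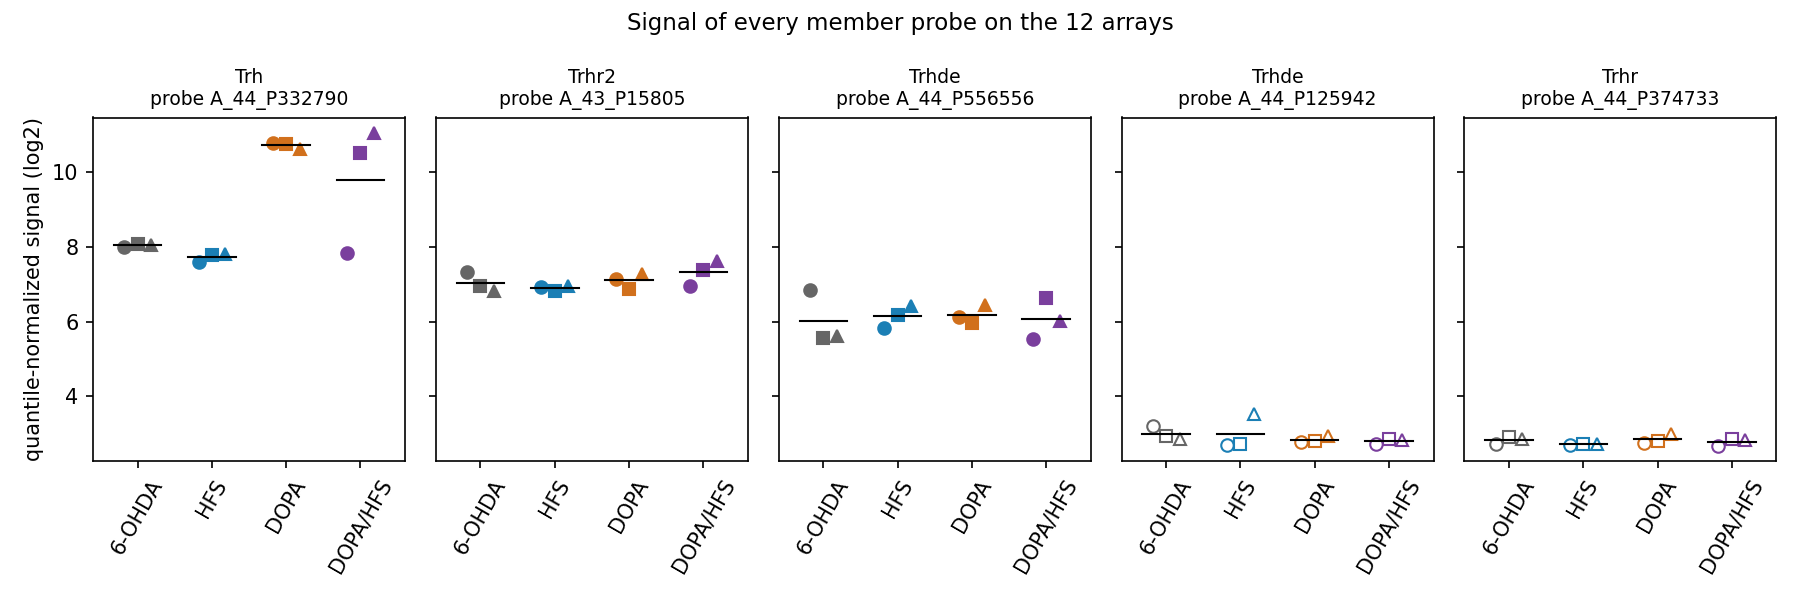
Quantile-normalized log2 signal (vertical axis, same scale in all panels) of the 5 member probes on each array of the 4 groups. Circles, squares and triangles are replicates 1, 2 and 3, lines are group means, and hollow symbols are spots not well above background. Only the Trh panel shows arrays near 10.5 and above, namely the DOPA arrays and 2 DOPA/HFS arrays. Levels of different probes are not comparable with each other.

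Under L-DOPA alone, the Trh mean was 10.71 ± 0.09 (SD, n = 3) against 8.04 ± 0.03 (n = 3) with the lesion alone, a difference of 2.67 in log2 or 6.39-fold. Within the slides the difference was 2.77, 2.69 and 2.57, and so was more than 2 in each of them. All 3 DOPA arrays lay above all 3 6-OHDA arrays, as did those of 3.16% of all genes, but this is the contrast by which Trh had been chosen and nothing is read from it. The size of the difference varied with the processing. It was 2.22 with a model-based background correction (normexp) and 2.25 in the log2 table that the authors deposited, in which the 6-OHDA arrays were at 8.45 to 8.47 and the DOPA arrays at 10.61 to 10.78.

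With L-DOPA and stimulation together, the Trh mean was 9.79 ± 1.72 (n = 3). The difference from 6-OHDA was 1.75, or 3.36-fold, but it was −0.18, 2.43 and 2.99 within the slides, and the groups overlapped. Without the first DOPA/HFS array the difference was 2.73. Compared with DOPA, the DOPA/HFS mean was 0.93 lower in log2, with differences of −2.95, −0.25 and 0.42 within the slides, and without the first DOPA/HFS array the mean difference was 0.05. In the values used here, the lower mean of DOPA/HFS than of DOPA thus came from 1 array. With outlier spots kept in the normalization, the Trh signal on the third DOPA/HFS array was 10.73 instead of 11.03. In the deposited log2 table, replicates 2 and 3 of DOPA/HFS were at 10.49 and 10.65, and the DOPA arrays at 10.61 to 10.78. The SD of Trh in DOPA/HFS was 1.72, against 0.03 to 0.12 in the other groups.

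**Figure D2:**
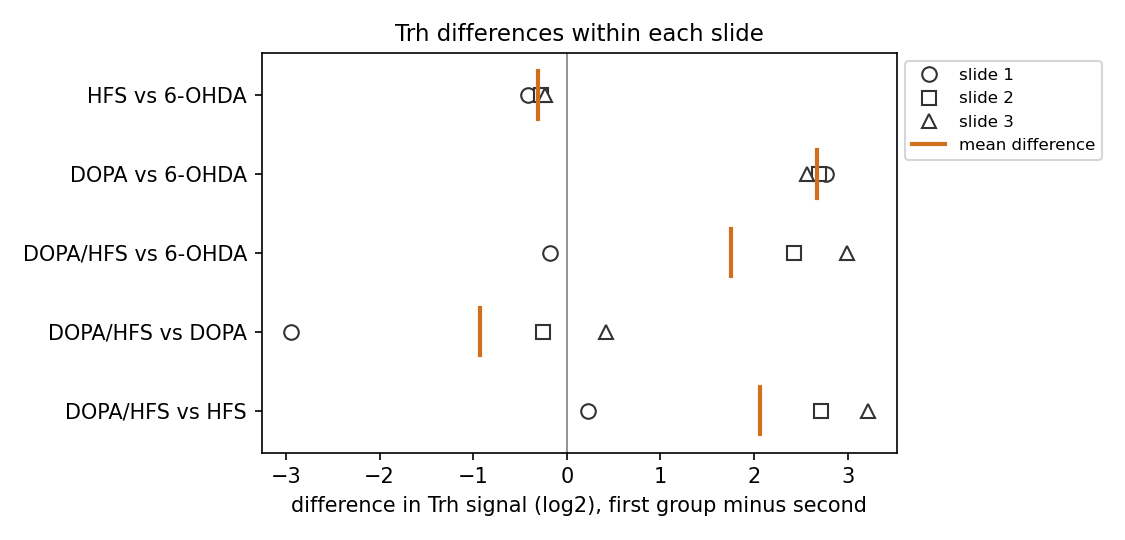
Difference in log2 Trh signal between the groups named on the left, first minus second, within each slide (symbols), with the mean difference as a bar. The 3 slides of DOPA vs 6-OHDA lie at 2.57 to 2.77, whereas slide 1 lies apart in each comparison with DOPA/HFS.

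Stimulation alone went with a slightly lower Trh signal. The HFS mean was 7.73 ± 0.12 (n = 3), and the difference from 6-OHDA was −0.31, or 0.808-fold. It was −0.41, −0.28 and −0.23 within the slides. In size, whatever the direction, this difference ranked 4280 among 20398 genes. The groups did not overlap, with a gap of 0.19, in the deposited log2 table either, where HFS arrays were at 8.16 to 8.29. HFS arrays lay below all 6-OHDA arrays for 2.34% of all genes. Choroid plexus genes moved with this comparison. The summed linear signal of 7 of the 8 listed choroid plexus genes, those with a value on every array, was 273 to 400 in 6-OHDA, 4310 to 89100 in HFS, 241 to 16500 in DOPA and 289 to 937 in DOPA/HFS, and its part in the Trh difference was not tested. Nor was that of the share of spots well above background, which was higher on every HFS array than on every 6-OHDA array. In the presence of stimulation, L-DOPA went with a Trh difference of 2.06 (DOPA/HFS vs HFS), at 0.23, 2.72 and 3.22 within the slides. The DOPA/HFS arrays all lay above the HFS arrays, as they did for 2.24% of all genes, but the gap was 0.01, between the first DOPA/HFS array and the third HFS array.

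The precursors of other hypothalamic peptides were compared with Trh. The 12 listed genes encode vasopressin, oxytocin, melanin-concentrating hormone, orexin and other peptides. In DOPA, 9 of the 10 that could be tested had a mean below that of 6-OHDA and 1 had a mean above it, none was called, and the median difference was −0.28 against −0.01 for all genes. Without replicate 2 of 6-OHDA this median was −0.1, without replicate 1 of 6-OHDA it was −0.42, and it was −0.16 both without replicate 2 of DOPA and in the deposited values. The summed signal of the 10 genes with a value on every array was 3020 to 4020 in 6-OHDA, 2420 to 3800 in HFS, 2020 to 3110 in DOPA and 2950 to 4390 in DOPA/HFS. Within DOPA/HFS, the sum was 2950 on replicate 1, where Trh was low, and 4390 and 3910 on replicates 2 and 3, where Trh was high. A linear sum is weighted to the brightest genes, here Pomc, Gal and Cartpt, which did not move together. On replicates 1 to 3 of DOPA/HFS the log2 signal was 9.93, 9.92 and 10.65 for Pomc and 9.25, 9.97 and 10.13 for Gal. For Cartpt it was 10.04, 10.84 and 9.57. The part of these genes in the Trh signal was not tested.

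Trhr2 and Trhde, the 2 members that were tested, showed no called difference in any comparison. A gene was called at an adjusted p under 0.1 in limma with a fold over 1.2 or under 0.8. By this rule 0% of the 20398 genes were called in HFS vs 6-OHDA and in DOPA/HFS vs 6-OHDA and 0.0049% in DOPA vs 6-OHDA and for the L-DOPA main effect, which is 1 gene, Igsf5, named after its values were seen. In DOPA vs 6-OHDA 0 genes were called with the replicate number as a block. The interaction gave 0%. At an unadjusted limma p under 0.05, 477 of the 20398 genes passed in HFS vs 6-OHDA, 527 in DOPA vs 6-OHDA and 561 in DOPA/HFS vs 6-OHDA. Each count was below the share of 0.05 that would pass on average if no gene differed. With 3 arrays against 3, the exact permutation test cannot give a two-sided p under 0.1.

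Trhr encodes the first of the TRH receptors, the one of the pituitary. Its probe was well above background on 0 of the 12 arrays, and the scanner software had put a surrogate value in place of the signal on all 12. The log2 signal was 2.69 to 2.99, under the lowest signal that counted as well above background on any array (4.03 to 5.71). It was therefore not well above background in any group, and no difference was computed.

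Trhr2 encodes the other TRH receptor, known from rodents. The accession of its probe is now listed by RefSeq under the symbol Mlnr, with Trhr2 as an older name. It was well above background on all 12 arrays. Its log2 signal was 7.31, 6.96 and 6.81 in 6-OHDA and 6.91, 6.81 and 6.96 in HFS. It was 7.14, 6.88 and 7.28 in DOPA and 6.95, 7.37 and 7.62 in DOPA/HFS. All treated groups overlapped with 6-OHDA. The order of the means was DOPA/HFS (7.31 ± 0.34), DOPA (7.10 ± 0.20), 6-OHDA (7.02 ± 0.26) and HFS (6.89 ± 0.08), and neighbours in this order differed by less than the larger of their SDs.

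In the values used here, the largest of the Trhr2 differences from 6-OHDA was that of DOPA/HFS, at 0.29 (SE 0.20, 95% interval −0.15 to 0.72). Its limma adjusted p of 1 stayed between 0.817 and 1 over the alternatives. The exact permutation p was 0.3. For DOPA the difference was 0.08 (95% interval −0.36 to 0.51), and for HFS it was −0.13 (−0.57 to 0.31). Averaged over stimulated and unstimulated animals, L-DOPA went with a Trhr2 difference of 0.25 (SE 0.14, 95% interval −0.06 to 0.56, limma adjusted p = 1, 0.986 to 1 over the alternatives). The DOPA/HFS value rested in part on the third DOPA/HFS array. With outlier spots kept in the normalization, the Trhr2 signal on that array was 7.02 instead of 7.62. The DOPA/HFS difference was then 0.07, and it was 0.06 in the deposited log2 table. For DOPA the difference was 0.08 and 0.06 under these settings, so DOPA/HFS no longer stood out. The L-DOPA main effect on Trhr2 was 0.14 and 0.1 under them. The intervals allow Trhr2 at 0.9-fold to 1.65-fold of the 6-OHDA level in DOPA/HFS and 0.779-fold to 1.43-fold in DOPA. Within the slides the DOPA/HFS array differed from that of 6-OHDA by −0.36, 0.41 and 0.81.

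Trhde was represented by 2 probes. Probe A_44_P125942 was well above background on 0 arrays and carried a surrogate value on 9. Probe A_44_P556556 was well above background on all 12, and the values below are from it. It was dim on 6-OHDA replicates 2 and 3, with a log2 signal of 5.57 and 5.62. The lowest signal that counted as well above background on these arrays was 5.12 and 5.3. Neither accession was in the RefSeq gene table, so the gene name is that of the array. The probes could not be compared in direction, since the first gave no usable signal.

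The log2 signal of Trhde was 6.85, 5.57 and 5.62 in 6-OHDA and 5.83, 6.18 and 6.42 in HFS. It was 6.12, 5.96 and 6.45 in DOPA and 5.54, 6.62 and 6.02 in DOPA/HFS. The first 6-OHDA array was the highest of all 12, the other 6-OHDA arrays were near the bottom, and all groups overlapped. Of the 5 cortical markers, 4 were on the array. The summed linear signal of the 3 with a value on every array was 1440, 456 and 553 in 6-OHDA, 305, 1130 and 1470 in HFS, 507, 609 and 2110 in DOPA and 682, 634 and 786 in DOPA/HFS, in the order of the replicates. The array with the highest Trhde signal also had the highest cortical sum in 6-OHDA, HFS and DOPA, whereas in DOPA/HFS it had the lowest. Their part in the Trhde signal was not tested. The Trhde means were 6.01 ± 0.72, 6.14 ± 0.30, 6.18 ± 0.25 and 6.06 ± 0.54 in 6-OHDA, HFS, DOPA and DOPA/HFS. The differences from 6-OHDA were 0.13 for HFS (95% interval −0.66 to 0.92), 0.17 for DOPA (−0.63 to 0.96) and 0.05 for DOPA/HFS (−0.75 to 0.84). The limma adjusted p was 0.998 for HFS and 1 for the others, and the lowest over the alternatives were 0.908, 0.994 and 0.918. Without the first 6-OHDA array the differences were 0.55, 0.58 and 0.46, and none was called. The intervals therefore allow a change of Trhde by 1.79-fold to 1.94-fold upward. They also allow a fall to 0.596-fold to 0.648-fold of the 6-OHDA level. The difference between the stimulation effect with and without L-DOPA was −0.25 for Trhde (SE 0.51) and 0.34 for Trhr2 (SE 0.28), each with a limma adjusted p of 1 (0.995 to 1 and 0.992 to 1 over the alternatives).

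The 10 genes whose signal followed that of Trh most closely over the 12 arrays had Pearson correlations of 0.945 to 0.986, among 18349 genes with a value on every array. These arrays shared slides and groups, and the correlation serves as a measure of likeness only. In order they were Cryba2, Tpbg, Pdyn, Crhr1, Nefh, Kcnk13, Cpne9, Gss, Amhr2 and Efemp2. In each of the 10, the 3 DOPA arrays and replicates 2 and 3 of DOPA/HFS lay above the other 7 arrays. The first DOPA/HFS array was between 0.35 below and 0.02 below the 6-OHDA mean (differences of −0.35 to −0.02). Such a pattern follows from the choice by likeness to Trh.

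Pdyn encodes prodynorphin, the precursor of the dynorphin opioid peptides, which is made in striatal projection neurons of the direct pathway. Its log2 signal was 14.53, 14.83 and 14.74 in 6-OHDA, 16.09, 16.21 and 15.98 in DOPA, and 14.68, 15.87 and 15.81 in DOPA/HFS. The DOPA mean was 2.63-fold that of 6-OHDA. Crhr1 encodes a receptor of corticotropin-releasing hormone, and was at 8.87, 8.7 and 9.05 in 6-OHDA and 9.9, 10.23 and 10.12 in DOPA, a 2.31-fold ratio of means. Tpbg encodes a membrane glycoprotein of the trophoblast, with a ratio of 2.62, and Nefh the heavy neurofilament subunit, with a ratio of 2.09.

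Kcnk13, a potassium channel, had a ratio of 2.36, and Cpne9, a copine, had one of 2.33. Efemp2, an extracellular matrix protein, was at 2.36-fold, and Gss, glutathione synthetase, at 1.57-fold. Cryba2, a beta crystallin, and Amhr2, the receptor of anti-Müllerian hormone, were well above background only on the 3 DOPA arrays and 2 DOPA/HFS arrays. Through these arrays alone, the filter on dim probes kept both genes. For these the DOPA mean was at least 3.76-fold (Cryba2) and at least 2.4-fold (Amhr2) higher than the detection limit of the 6-OHDA arrays, taken as the lowest signal well above background on each array or the probe's own, whichever was higher. The log2 DOPA signal was 6.9 to 6.94 for Cryba2 and 6.22 to 6.36 for Amhr2. In their upstream windows of 250 bases, TGACGTCA and TGACCTCA were present in 0 of the 10 genes, TGANTCA in 1 (Cryba2) and TATAA in 3 (Cryba2, Gss and Pdyn).

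**Figure D3:**
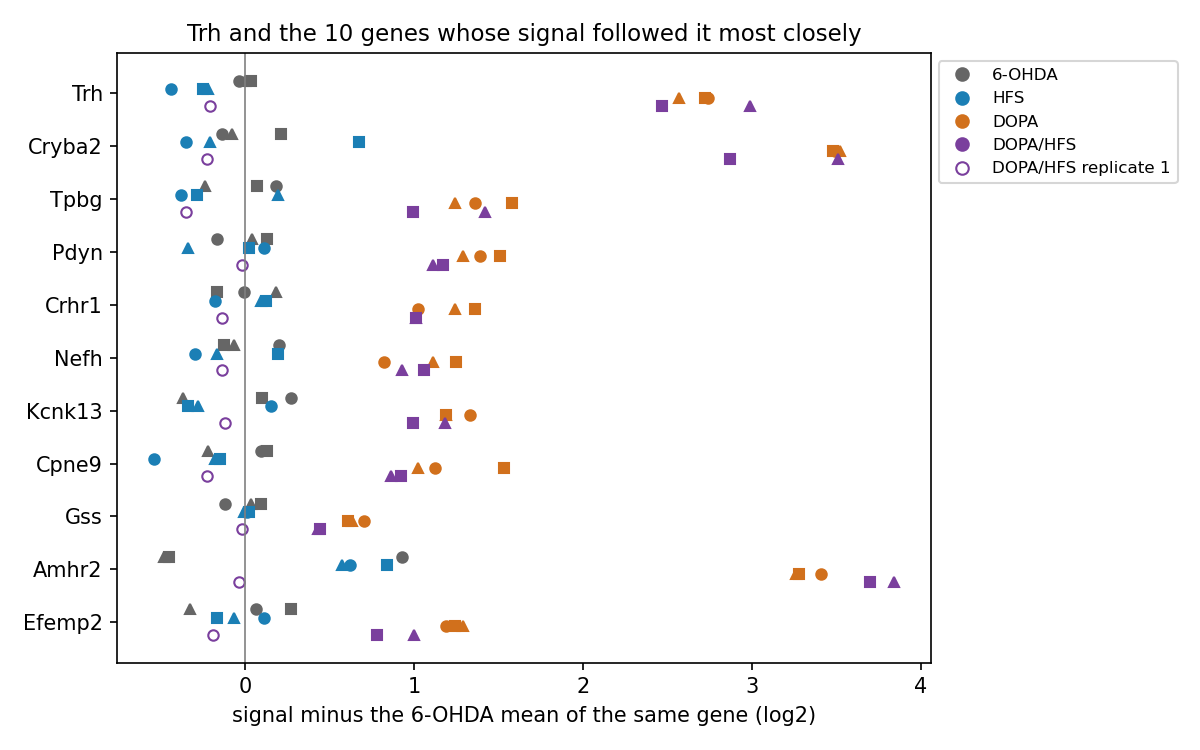
Log2 signal of Trh and of the 10 genes most like it, on each array, as the difference from the mean of the 6-OHDA arrays of the same gene. Colours are groups, circles, squares and triangles are replicates 1 to 3, and the first DOPA/HFS array is hollow: it lies between −0.35 and −0.02 in the 10 genes, whereas the other DOPA/HFS arrays lie with the DOPA arrays or close to them. Cryba2 and Amhr2 were not above background on the 7 low arrays.

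How far the list holds depended on the measure. By rank correlation (Spearman) only 1 of the 10 genes was among the 10 most like Trh, and 7 of them were in the list from the deposited log2 values. Tpbg was in the list under all 14 alternatives, and Amhr2 under 6. For Trhr2, the closest genes were CO567020, an expressed sequence with no gene name here, at a correlation of 0.946, and Tbcc, Ehd4, AA926191 and Ap2s1 at 0.869 to 0.896. For Trhde they were TC523765, Dpp4, Pcsk5, AW143134 and Dpp10, at 0.859 to 0.892. None of these was among the 10 most like Trh.

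The genes around TRH were examined in 5 lists by function, of which 38 genes could be tested. In each comparison 0 of the 38 were called, and the share whose groups did not overlap was 5.26% for HFS, 5.26% for DOPA and 2.63% for DOPA/HFS, against 5.13%, 6.27% and 4.19% of all genes. The medians of the lists lay between −0.16 and 0.33. The pituitary list held 1 tested gene, Cga.

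The list of TRH processing holds the enzymes that make the peptide from its precursor and 2 proteins that bind the convertases, Scg5 and Pcsk1n, and 9 of its 10 genes were tested. Their median difference was 0.03 for HFS, 0.15 for DOPA and 0.07 for DOPA/HFS. Pcsk2, a prohormone convertase, was the 1 gene of the list that was higher at an unadjusted p under 0.05, in DOPA, as were 1.32% of all genes. Its log2 signal was 11.94, 11.48 and 12.42 in 6-OHDA and 12.37, 12.7 and 12.62 in DOPA, so the groups overlapped, and the difference was 0.61 (SE 0.24, limma adjusted p = 1). Pcsk1, the other neuroendocrine convertase, differed by 0.4 (SE 0.23) in DOPA, and Cpe (carboxypeptidase E) and Pam (the amidating enzyme) by 0.2 and 0.15. The glutaminyl cyclase Qpct was too dim to test, and its relative Qpctl differed by −0.08 in DOPA.

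Of the 9 peptidases related to Trhde or able to cleave TRH, 8 were tested. Pgpep1, the cytosolic pyroglutamyl peptidase, was at 7.08, 7.22 and 7.04 in 6-OHDA and 7.31, 7.7 and 7.28 in DOPA. These groups did not overlap, as for 3.16% of all genes in that direction. The difference was 0.31 (SE 0.15, limma adjusted p = 1). Prep, prolyl endopeptidase, differed by −0.03 in DOPA and −0.29 in HFS. Lnpep, the placental leucine aminopeptidase, was at 5.44, 5.44 and 5.65 in 6-OHDA and 5.03, 4.6 and 4.66 in DOPA/HFS, where 2 of the 3 arrays were well above background. The difference was −0.75 (SE 0.21, limma adjusted p = 1). The groups did not overlap, as for 2.44% of all genes in that direction, and 1.92% of all genes were lower at an unadjusted p under 0.05, as Lnpep was. The median of the list was −0.16 in DOPA/HFS, 0.01 in HFS and −0.03 in DOPA.

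In the Gq signalling list, 13 of 14 genes were tested, and the median difference was 0.09 for HFS, 0.01 for DOPA and 0.03 for DOPA/HFS. Gnaq, which encodes the Gq alpha subunit, differed by 0.16, 0.05 and 0.09 in the same order, and its partner Gna11 by 0.06, 0.01 and −0.47, the last over 2 DOPA/HFS arrays because the spot of the other was an outlier. Plcb1, a phospholipase C, differed by −0.27, −0.17 and −0.12. No gene of this list passed an unadjusted p of 0.05 in these comparisons.

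Of the 8 genes of transcription factors known to act on Trh, 7 were tested, with median differences of 0.05, 0.01 and 0.09. Creb1, which binds the cyclic AMP response element, was at 5.91, 4.56 and 5.42 in 6-OHDA and 5.88, 5.97 and 5.78 in DOPA, and was well above background on 2 of the 3 arrays in both groups. The groups overlapped, and the difference of 0.58 (SE 0.30) had a limma adjusted p of 1. The thyroid hormone receptors Thra and Thrb, which repress Trh in the hypothalamus, differed by −0.09 and −0.23 in DOPA. Sim1 was too dim to test. In the pituitary and thyroid list, Tshb, Prl, Tshr and Prlr were too dim to test, and Cga, the subunit shared by the glycoprotein hormones, differed by 0.33, 0.15 and 0.32 with SDs of 0.66 to 0.93 within the groups. It was well above background on 2 of the 3 6-OHDA arrays, 1 of the 3 DOPA arrays and all 3 arrays of HFS and of DOPA/HFS.

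**Figure D4:**
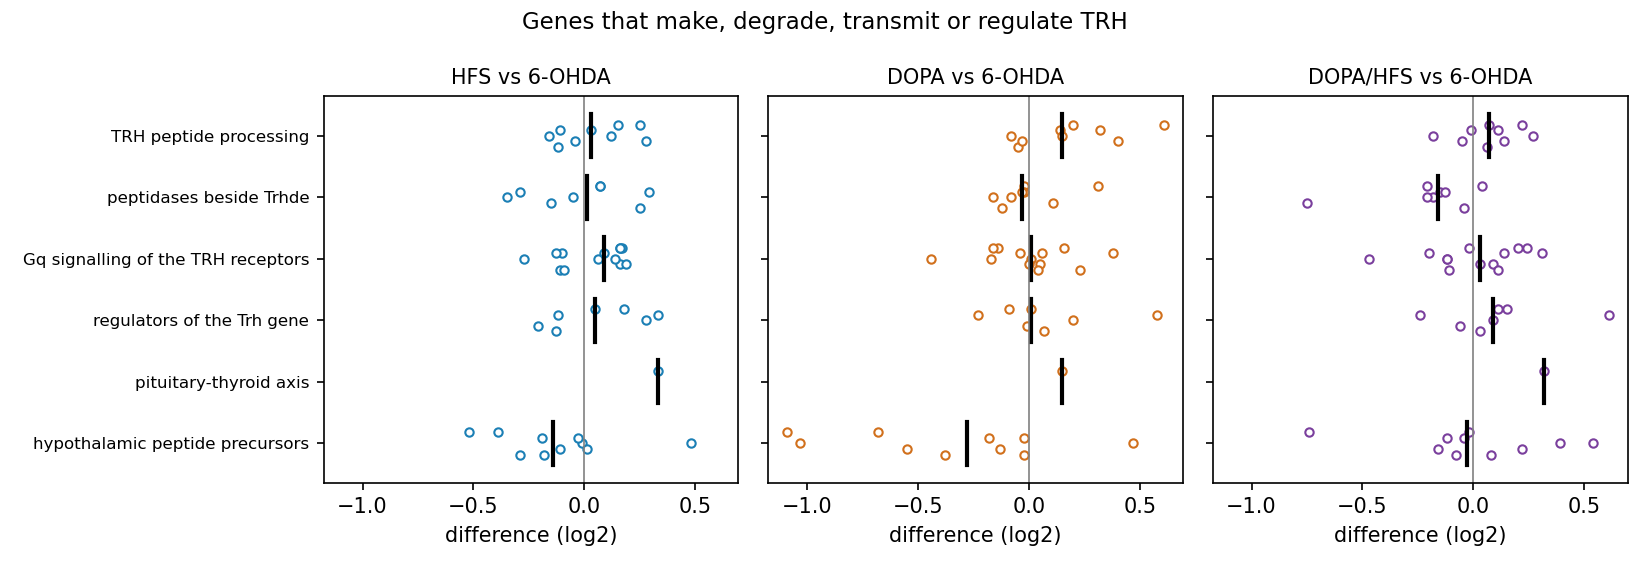
Log2 difference from the 6-OHDA group for each tested gene (circles) of 5 lists around TRH and of the precursors of other hypothalamic peptides, with a panel for each treated group. Black bars are list medians, and 0 of these genes were called. The medians of the 5 lists lie between −0.16 and 0.33, while the Trh difference in DOPA, which is not drawn, was 2.67.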

How the data were processed

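Spot intensity values were taken from the deposited scanner files, in which the authors had quantified each array with Agilent Feature Extraction (9.1 in the submitters' processing notes, 9.1.3.1 in the file headers), subtracting local background and replacing very low values by surrogates, with no scaling between arrays. The log2 values that the authors deposited in the series table, quantile normalized by them, were used as an alternative. Their ranks equal those of mean spot signal minus mean background (Spearman correlation of 1 on each array), they run from 5.6 to 17, and each array's median is 7.21. Each array held 45018 spots, of which the 1639 controls were left out, as were outlier spots. Log2 processed intensities were quantile normalized, spots averaged per probe, probes well above background on at least 0.4 of the arrays (5 of 12) kept, and the brightest probe of a gene used for it, leaving 20398 genes. Gene names were those of the array, or for 10735 probes the GRCr8 gene table's through their RefSeq accession. Groups and replicate numbers came from the sample labels.

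The arrays were fitted together in limma 3.58.1 (lmFit and eBayes, R 4.3.3, with jsonlite 2.0.0 and version 1.17.8 of data.table), with Benjamini-Hochberg adjustment over all genes. The fit was tested on simulated data. Limma stood in place of the SAM test of the methods, whose permutations of 3 against 3 arrays are few. The named genes were the members, the listed genes, the 10 genes with the highest correlation with Trh and the 5 with the highest for Trhr2 and Trhde. The members and lists were chosen with earlier results of these data known. The design text gives 3 animals a group, 1 array each, and the number of arrays limits the precision. Alternatives were scaling to the 75th percentile, normexp with an offset of 50, the deposited table, other filters and probe rules, outlier spots kept, scaling to the HPRT gene, a replicate block, the compared arrays alone, and each array left out. Figures were drawn with matplotlib 3.10.9 in Python 3.11.15.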

Additional observations from a re-analysis of the deposited data

How the results depend on the processing

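Trhr2 and Trhde were called under no alternative, and Trh and Trhr were not tested. The DOPA vs 6-OHDA difference of Trh moved by more than the spread of the arrays to 2.22 with normexp and 2.25 in the deposited table, and kept its direction. Leaving out each array in turn gave 2.64 to 2.73 for it, −0.35 to −0.24 for HFS vs 6-OHDA, 1.13 to 2.73 for DOPA/HFS vs 6-OHDA, 1.43 to 3.04 for DOPA/HFS vs HFS and −1.55 to 0.05 for DOPA/HFS vs DOPA, the last 0.05 without the first DOPA/HFS array. The direction of the uncalled Trhde differences was not stable. DOPA/HFS vs 6-OHDA turned to −0.07 in the deposited table and −0.16 with outlier spots kept, and the L-DOPA main effect to −0.03 and −0.07. Keeping the outlier spots lowered Trhde by 0.57 on the third DOPA/HFS array (a change of −0.57), and the rest of the cause was not tested. With each array left out, Trhde differences ranged from −0.09 to 0.55 in HFS, −0.06 to 0.58 in DOPA, −0.23 to 0.46 in DOPA/HFS, −0.1 to 0.25 for the main effect and −0.67 to 0.01 for the interaction. Those of Trhr2 ranged from −0.24 to 0.01, −0.03 to 0.22, 0.13 to 0.47, 0.17 to 0.34 and 0.19 to 0.52. The mean of all probes gave the members the same signals, since 1 probe of each passed the filter. Over all genes, the count called in DOPA vs 6-OHDA was 1, and 0 to 2 under other settings and 0 to 13 with an array left out, 13 without the first DOPA/HFS array. In HFS vs 6-OHDA it was 0, and 3 without the filter on dim probes and 0 to 2 with an array left out. In DOPA/HFS vs 6-OHDA it was 0, and 0 to 3 with an array left out, 3 without the first DOPA/HFS array. For the L-DOPA main effect it was 1, and 1 to 2, or 28 without the first DOPA/HFS array. Arrays that share a replicate number share a slide. Of 18 such pairs, 10 had a correlation of their deviations over 0.1 (−0.288 to 0.477), and 5 of the 12 arrays were nearest to their own number. The median correlation was 0.112 for pairs of the same number and −0.0693 for pairs of different numbers. With the replicate number as a block, the differences of Trhr2 (0.29 in DOPA/HFS, adjusted p = 0.991) and Trhde (0.05, adjusted p = 0.997) changed no call of a member, and 0 genes were called in DOPA vs 6-OHDA. The median of the other hypothalamic precursors in DOPA was −0.42 to −0.1 with an array left out. The medians of the 5 pathway lists under the alternatives stayed between −0.35 and 0.85, the extremes in the pituitary list of 1 gene.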
